A study of Homo sapiens with 21 samples.

Results

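Melanoma cells can lose SOX10 by more than one route, and the 2 routes sequenced here were compared in the absence of drug. SOX10 is a transcription factor of the neural crest, the embryonic cell population from which melanocytes and Schwann cells arise, and it maintains the melanocytic lineage. Of the 21 libraries of the series, 12 entered the comparison. Loss of SOX10 was acquired in CRT34 and CRT35, lines that came from A375 tumors grown in mice under combined BRAF and MEK inhibition. Loss was engineered in gSOX10 #2 and gSOX10 #4, A375 clones that had been edited with CRISPR/Cas9 and a different guide RNA each. A375 is a human melanoma line in which the BRAF kinase is mutated and constantly active, a mutation that all groups share. In culture the CRT lines were kept under PLX4720 (1 µM), which inhibits BRAF, together with PD0325901 (35 nM), which inhibits MEK. The 6 libraries used here came from their drug-free arms (DMSO), and how long the drugs had been withdrawn is not given in the labels. The clones and the parental line received no inhibitor. Each of the 4 groups held 3 libraries, and the 3 parental libraries are given beside them as values only.

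Several properties other than the route of SOX10 loss separate the lines from the clones. The lines had passed through a mouse, had a history of inhibitor exposure and had been taken off the drugs, and the clones had passed through Cas9 delivery, antibiotic selection and single-cell cloning. These cannot be told apart from the route in this design, since neither a control clone nor a line from an untreated tumor was analysed here. Each knockout is a single clone, and the independent units of the comparison are 2 lines against 2 clones. An exact permutation test of 2 against 2 cannot give a p below 0.33. The tests below measure the spread between libraries of a line or clone, and the labels do not say whether these came from separate cultures. The clone labelled gSOX10 #4 has a number in its title that, in the study's methods, belongs to a MeWo melanoma clone. The gSOX10 #2 titles are numbered unlike the rest.

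When SOX10 is lost, melanoma cells typically leave the melanocytic program and take up a mesenchymal one, with secretion of extracellular matrix and changed growth factor receptors. Such cells tolerate BRAF and MEK inhibitors. Interstitial matrix is built from fibrillar collagens, the proteoglycans that bind them and the enzymes that cross-link them, and in tissue it is mostly the product of fibroblasts. The NF-kappaB family of transcription factors drives many chemokines, cytokines and adhesion molecules, and also the antiapoptotic gene BIRC3.

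Expression is given as the normalized value per gene deposited by the authors, which appears to be a read count scaled between libraries and per gene. The values of a library summed to 59.2 M to 65.5 M, M standing for mega. The spacing of low values gave a depth of roughly 27.3 M to 72.1 M reads, with CRT35 DMSO replicate 1 the shallowest. Pearson's r of log values over genes was 0.968 to 0.987 for libraries of a group and 0.896 to 0.962 for libraries of different groups, and genes are not independent. Differences are lines minus clones in log2(value + 1), and the added 1 makes those of low genes too small. Each line and each clone was weighted equally, with limma's standard error (SE) and Benjamini-Hochberg adjusted p over 19290 genes. A contrast called a gene when the adjusted p did not exceed 0.05 and the levels differed at least 2 times. A gene was said to differ in both lines against both clones when all 4 contrasts of a line with a clone were called in 1 direction. Values are listed in the order of replicates 1 to 3.

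To check the labels, SOX10 was examined first. The gene (ENSG00000100146.17, GRCh38 chromosome 22, 37970686 to 37987422, minus strand) was lost to different depths. Transcript remained at 392, 504 and 459.6 in gSOX10 #2 and at 456, 488 and 517 in gSOX10 #4. The lines had 6.32, 0 and 0.974 in CRT34 and 0, 0 and 0 in CRT35, and the parental line had 10348, 11877 and 12822. All 6 libraries of the lines were below all 6 of the clones. With the lines at or near 0, the fitted difference of -8.23 depends on the 1 added to each value (SE 0.33, limma adjusted p = 4.04e-13). Engineered cells thus kept a low level of SOX10 mRNA, CRT34 had at most 6.32 and CRT35 was listed at 0. An edited gene can still be transcribed, and the level of protein was not measured here.

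In all, 790 genes were higher in both lines than in both clones (4.1% of genes tested) and 523 were lower (2.71%). Counts of list members below are to be read against these shares. The lists and their members were chosen with earlier results of these data known, so their counts are descriptions and not independent evidence. Of the higher genes, 663 were protein-coding, as were 380 of the lower. The smallest of the 4 differences had a median of 2.42 on the log2 scale over the higher genes and 2.10 over the lower. It reached 16 times for 161 higher and 73 lower genes, and 64 times for 49 and 10. All 6 libraries of the lines were separated from all 6 of the clones for 757 of the 790 and 494 of the 523, and for 14.7% of all genes tested. This follows largely from how the 790 and 523 were selected in the same libraries and is no further evidence. In single contrasts CRT34 had 1722 genes higher (8.93%) and 1696 lower (8.79%) than gSOX10 #2, and 2288 higher (11.9%) and 1403 lower (7.27%) than gSOX10 #4. CRT35 had 1691 higher (8.77%) and 1843 lower (9.55%) than gSOX10 #2, and 2365 higher (12.3%) and 1608 lower (8.34%) than gSOX10 #4. The lines also differed from each other, with 712 genes higher (3.69%) and 853 lower (4.42%) in CRT35 than in CRT34, and they lay on opposite sides of both clones for 7 genes (0.0363%). The mean of the lines against the mean of the clones gave 2015 higher (10.4%) and 1613 lower genes (8.36%). With the 4 means as the observations, 2 against 2, limma called 286 higher (1.48%) and 162 lower (0.84%). Some genes named below passed that fit, among them COL3A1, VCAM1 and CXCL8 (limma adjusted p = 0.0104, 0.00945 and 0.0104). Others did not, among them TGFA (0.0624), PLAU (0.0772), PDGFRB (0.0604), ERBB3 (0.0805), LTBP3 (0.0662) and NID1 (0.0904).

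**Figure D1:**
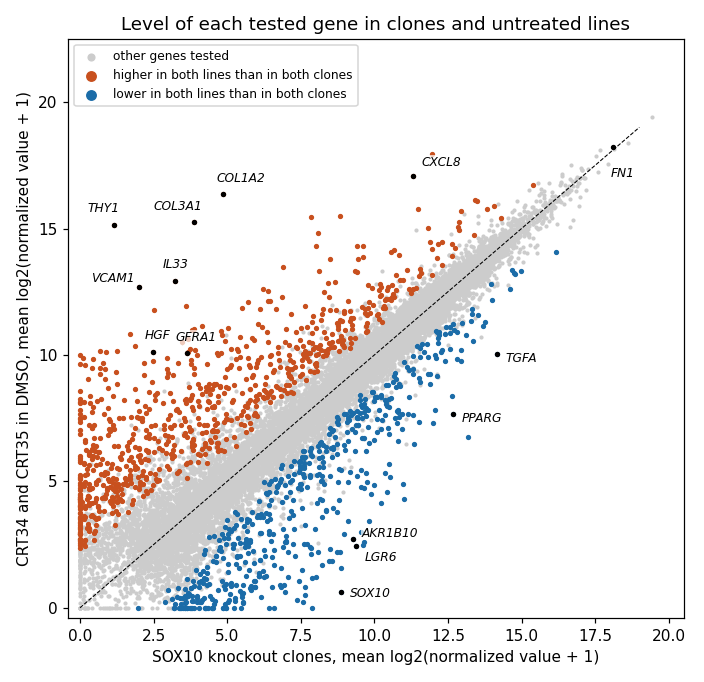
Mean log2(normalized value + 1) of each of the 19290 genes in the SOX10 knockout clones (horizontal axis) and in CRT34 and CRT35 in DMSO (vertical axis), 1 point per gene. The dashed line marks equal levels, orange points are the 790 genes higher in both lines, blue points are the 523 lower, and THY1, COL1A2, COL3A1 and VCAM1 lie farthest above the line among the genes labelled by name.

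The parental line gave a reference level for both sides. For the 790 higher genes the parental mean was nearer to the mean of the clones in 615 (77.8%) and nearer to the lines in 175 (22.2%). For the 523 lower genes it was nearer to the lines in 304 (58.1%) and nearer to the clones in 219 (41.9%). These shares are descriptions, with no test, and the same shares over all genes tested were not computed.

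Of the 14 genes that led the ranking of those higher in the lines, THY1, COL3A1, COL1A2, FMOD and CD248 code for matrix or mesenchymal surface proteins. Among protein-coding genes with separated libraries and a mean of at least 10 per M of the library's total, the smallest of the 4 differences was largest for THY1, the surface glycoprotein CD90 of fibroblasts and mesenchymal stem cells (GRCh38 chromosome 11, 119415476 to 119424985, minus strand). THY1 had 40224, 24903 and 30311 in CRT34 and 43671, 40052 and 41192 in CRT35. In the clones it had 2.84, 0 and 1.63 in gSOX10 #2 and 0, 0.596 and 6.57 in gSOX10 #4, and in the parental line 14.8, 0.929 and 2.33. The groups were apart by 13.73 to 14.23 on the log2 scale in the 4 contrasts (largest limma adjusted p = 1.41e-11). COL3A1, the chain of type III collagen (chromosome 2, 188974373 to 189012746, plus strand), stood at 53850, 42088 and 40823 in CRT34 and 43850, 27161 and 31305 in CRT35, and at 18.8, 20.04 and 41.4 in gSOX10 #2 and 10.6, 5.95 and 6.31 in gSOX10 #4 in the clones. COL1A2, a chain of type I collagen (chromosome 7, 94394895 to 94431227, plus strand), stood at 72855, 76689 and 72609.6 in CRT34 and 126075, 82660.4 and 81751 in CRT35, against 215, 103 and 125 in gSOX10 #2 and 16, 10.8 and 0 in gSOX10 #4. Both collagens were far higher in every library of the lines than in any clone library, with differences of 11.36 (SE 0.23, limma adjusted p = 4.38e-17) and 11.51 (SE 0.46, adjusted p = 4.04e-13). In gSOX10 #2 COL1A2 was above gSOX10 #4 in every library.

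FMOD codes for fibromodulin, a proteoglycan that binds collagen fibrils, and CD248 for endosialin, a surface protein of pericytes and stromal fibroblasts. Both were listed at 0 in all 6 clone libraries. FMOD had 2008, 1267 and 1348 in CRT34 and 1226, 620.3 and 457 in CRT35, and CD248 had 517, 539.5 and 1026 in CRT34 and 1106, 947 and 904 in CRT35. The other genes at the top of the ranking were TMEM204, PARVG, TMEM119, CAVIN2, FCGRT, BEX1, SELENBP1, IL33 and VCAM1. PARVG codes for gamma-parvin, an adaptor between integrins and actin, CAVIN2 for a protein that shapes caveolae, and FCGRT for the neonatal Fc receptor. Group means of TMEM204, PARVG, TMEM119, CAVIN2, FCGRT, BEX1 and SELENBP1 ran in the lines from 601 for CAVIN2 in CRT34 to 2322 for SELENBP1 in CRT34, and no clone had a mean above 6.6. For these 7 genes the fitted differences, which depend on the 1 added, ran from 8.81 for CAVIN2 to 9.46 for FCGRT (limma adjusted p from 4.36e-16 to 1.57e-09). In the parental line PARVG had 21.4, 10.6 and 18.6, above both clones.

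Of 36 fibrillar collagen and interstitial matrix genes, 20 were higher in both lines and 0 lower, with a median difference of 2.34 beside 0.02 over all genes. COL1A1 had 51042, 18266 and 28765 in CRT34 and 84923, 56351 and 61725 in CRT35, against 259.5, 411 and 520 in gSOX10 #2 and 156, 104 and 159 in gSOX10 #4 in the clones (7.60, SE 0.37, limma adjusted p = 5.56e-12). LOXL1, a lysyl oxidase that cross-links elastin, had 777, 523 and 653 in CRT34 and 1802, 1191 and 1264 in CRT35, against 8.39, 11.2 and 3.06 in gSOX10 #2 and 19.8, 5.18 and 2.67 in gSOX10 #4 (6.93, SE 0.39, adjusted p = 4.44e-11). Every library of the lines was above every clone library for both. COL6A3, a chain of the beaded filament collagen VI, averaged 260939.7 and 252046 in CRT34 and CRT35 and 3634 and 4552 in gSOX10 #2 and gSOX10 #4. The small proteoglycans DCN (decorin), BGN (biglycan) and LUM (lumican) were higher by 5.74, 5.30 and 2.75, and THBS2, a matricellular thrombospondin, by 6.38. The remaining genes called were COL5A1, COL5A2, COL6A1, COL6A2, COL12A1, COL16A1, POSTN, FBN2, FBLN1, EFEMP1 and EMILIN1, with differences from 1.37 for COL5A1 to 5.71 for FBLN1. At a difference of at least 4 times 13 of the 36 were called, and 10 with the 2 lines and 2 clones as observations.

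Not all matrix genes followed. FN1, which codes for the matrix glycoprotein fibronectin, had 549511, 556079.9 and 549027 in CRT34 and 256639, 144729 and 139845 in CRT35. The clones had 459707, 482843 and 426978 in gSOX10 #2 and 234196, 131138 and 181521 in gSOX10 #4, so the groups overlapped, and the difference was 0.12 (95% interval -0.35 to 0.59, limma adjusted p = 0.699). THBS1, TGFBI and SPP1 were not called in the mean of lines against clones (-0.75, -0.76 and -0.19, adjusted p = 0.0745, 0.0159 and 0.632). VCAN, the proteoglycan versican, was lower in that mean (-1.14, adjusted p = 0.00138) but not in all 4 contrasts. Fibronectin thus overlapped between lines and clones, while collagens I, III and VI did not.

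**Figure D2:**
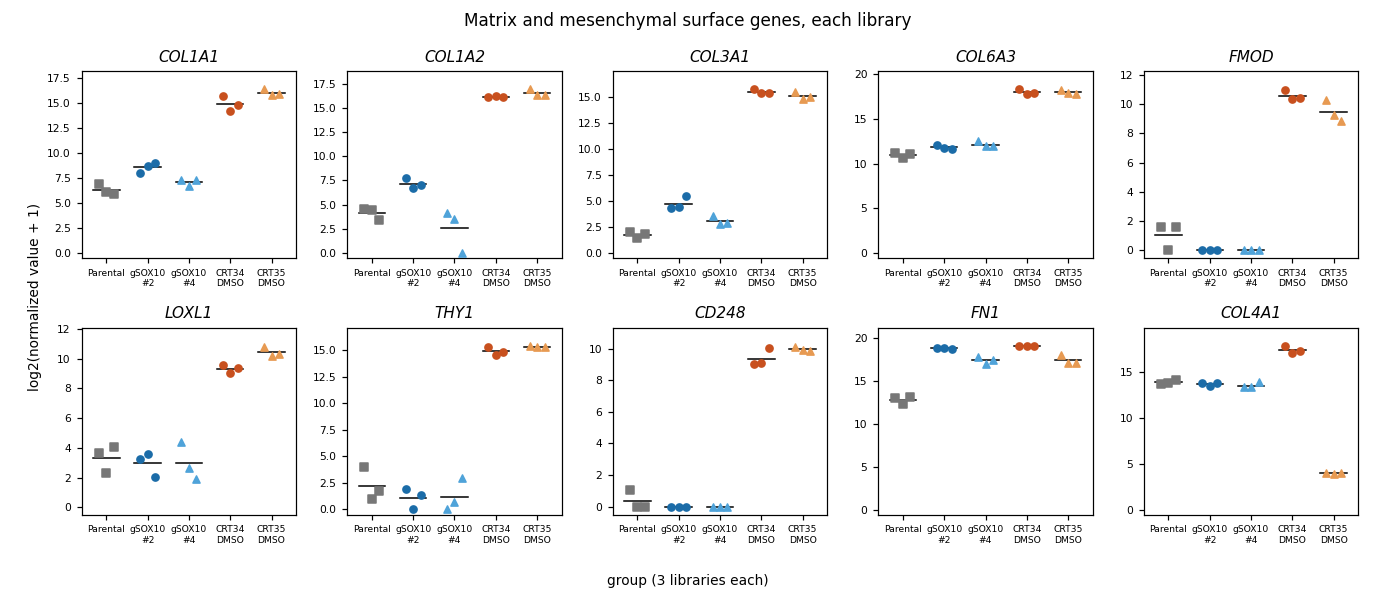
Log2(normalized value + 1) of 10 matrix and mesenchymal surface genes, 1 point per library, for the parental line, both clones and both lines in DMSO (3 libraries each), with a bar at the group mean. COL1A1 to CD248 are higher in all 6 libraries of the lines than in all 6 of the clones, FN1 overlaps, and COL4A1 is highest in CRT34 and lowest in CRT35.

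Markers of fibroblasts, the main matrix-producing cells of connective tissue, were also higher, though this list shares members with the matrix list. Of 13 fibroblast markers, 12 passed the filter on low values and 10 of these were higher in both lines. The excluded gene, DPT, averaged 12.1 in CRT34 and was listed at 0 in CRT35 and in both clones. Summed over the 13 markers, the level was 6143 to 9459 per M in CRT34 and 3613 to 5515 in CRT35, against 152 to 186 in gSOX10 #2, 92.5 to 106 in gSOX10 #4 and 19.1 to 23.4 in the parental line. The markers share COL1A1, COL1A2, COL3A1, DCN, LUM and POSTN with the matrix list. These shared genes made up most of the sum in both lines, so the sum largely repeats the matrix result. Called markers outside the matrix list were PDGFRA, PDGFRB, FAP and THY1. PDPN (podoplanin) was listed at 0 in gSOX10 #2 and averaged 287 in gSOX10 #4 and 355 in CRT35. ACTA2, the smooth muscle actin of myofibroblasts, averaged 11749.7 in CRT34 but 1182 in CRT35, beside 1241 in gSOX10 #2 and 1643 in gSOX10 #4. PDPN and ACTA2 were the tested markers not called in all 4 contrasts. The part of other cells in the matrix result was not tested, and in bulk RNA more cells of a type cannot be told apart from more RNA per cell. Of 18 leukocyte markers 11 passed the filter, with sums of 65.1 to 121 per M in CRT34, 137 to 156 in CRT35, 120 to 147 in gSOX10 #2 and 71.1 to 87.8 in gSOX10 #4. Most of each sum was CD68, a lysosomal protein that cells other than macrophages also make. PTPRC, which codes for the pan-leukocyte protein CD45, averaged at most 4.57 in any of the 5 groups and CD14 at most 11.3. CD4 was the single leukocyte marker called, with 673, 580.1 and 784 in CRT34 and 18, 7.5 and 14.1 in CRT35 against at most 1.01 in any clone library.

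Of 10 endothelial markers tested of 13, TEK, EMCN and PECAM1 were higher in both lines. TEK, the angiopoietin receptor, had 1722, 1477 and 1941 in CRT34 and 3319.9, 1707 and 2275 in CRT35, against 32.3, 20.2 and 13.6 in gSOX10 #2 and 28.8, 38.1 and 39.2 in gSOX10 #4 (6.16, SE 0.23, limma adjusted p = 2.03e-13). CLDN5, a tight junction protein of endothelium, was listed at 0 in all 5 groups, and VWF, von Willebrand factor, averaged 1.84 in CRT34, 12.2 in CRT35, 50.1 in gSOX10 #2 and 12.5 in gSOX10 #4. The endothelial sum was 44.5 to 60.4 per M in CRT34, 53.1 to 97.2 in CRT35, 26.7 to 36.0 in gSOX10 #2 and 23.4 to 40.4 in gSOX10 #4. The calls of PECAM1 and EMCN depended on single libraries. The call of PECAM1 was lost in 8 of the 12 fits that each omit 1 library (largest adjusted p of the 4 contrasts from 0.0519 to 0.168), and that of EMCN without CRT35 DMSO replicate 1 (0.0506). Of 14 keratinocyte markers, KRT17 was higher (192, 136 and 231 in CRT34 and 52.6, 38.3 and 19.6 in CRT35 against 2.52, 5.1 and 3.9 in gSOX10 #2 and 3.02, 1.26 and 3.12 in gSOX10 #4). SFN, which codes for stratifin, was lower, at 7.33, 9.45 and 11.3 in CRT34 and 16, 26 and 27 in CRT35 against 237, 361 and 289.6 in gSOX10 #2 and 662, 533 and 362 in gSOX10 #4. KRT15 was the other lower gene, and lost its call in 10 of the 12 fits that omit 1 library (largest adjusted p from 0.0508 to 0.152). The keratinocyte sum was 262 to 325 per M in CRT34, 354 to 374 in CRT35, 477 to 936 in gSOX10 #2 and 350 to 499 in gSOX10 #4.

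Basement membrane differed between the lines as well as from the clones. Of 23 genes, LAMC3, COL15A1, COL18A1 and NID1 were higher in both lines and LAMA2 and LAMA1 were lower. NID1, which codes for nidogen and links laminin to collagen IV, averaged 22835 and 20434 in CRT34 and CRT35, and 9023 and 4480.1 in the clones (1.76, SE 0.15, limma adjusted p = 1.99e-08). LAMA2, the laminin alpha chain of muscle and nerve, had 54.5, 149.9 and 33.2 in CRT34 and 132, 51.3 and 279 in CRT35 against 1050.2, 951 and 946 in gSOX10 #2 and 686, 829.7 and 981 in gSOX10 #4. COL18A1 was not called without gSOX10 #2 replicate 3 (largest adjusted p = 0.0532). COL4A1, which codes for a chain of collagen IV, had 236477, 133674 and 157150 in CRT34 and 15.8, 13.8 and 15.5 in CRT35. The clones lay in between, with 14442, 11500 and 14183 in gSOX10 #2 and 10764, 10424 and 15066 in gSOX10 #4, and the mean of the 2 lines describes neither of them.

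Of 29 matrix proteases and inhibitors, 4 were higher and 1 lower. ADAMTS4, an aggrecanase, had 3737, 3587 and 5042 in CRT34 and 5679, 4251 and 4164 in CRT35. In the clones it had 84, 82.3 and 77.8 in gSOX10 #2 and 52.1, 31.6 and 21.1 in gSOX10 #4, and in the parental line 265, 444 and 407 (6.37, SE 0.21, limma adjusted p = 2.13e-14). SERPINB2, an inhibitor of plasminogen activators, averaged 35017 and 27154 in the lines, 111 in gSOX10 #2 and 1192 in gSOX10 #4. ADAMTS2, which removes the aminopropeptide of fibrillar procollagens, averaged 306 and 231, with 21.4 in gSOX10 #2 and 0 in each library of gSOX10 #4. PLAU, the urokinase plasminogen activator, was lower, at 46, 72.9 and 75.4 in CRT34 and 59.5, 108 and 101 in CRT35 against 277, 382 and 328 in gSOX10 #2 and 651, 748 and 1034 in gSOX10 #4 (-2.77, SE 0.27, adjusted p = 1.21e-07). MMP12, the fourth higher gene, was not called without gSOX10 #4 replicate 2 or 3 or CRT35 DMSO replicate 1 or 2 (largest adjusted p from 0.107 to 0.191). Nor was MMP12 called with 10 added instead of 1, with no filter, with the 12 libraries fitted alone or after quantile normalization. In these settings the largest limma adjusted p ran from 0.0518 to 0.118. Lines and clones overlapped for MMP12, with 3.99 in CRT35 DMSO replicate 3 and 7.03 in gSOX10 #4 replicate 1. MMP1 and MMP9 were higher in the mean of the lines (2.54 and 5.82) but not in all 4 contrasts.

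The second program that stood higher in the lines was inflammatory. Of 33 cytokine, chemokine and NF-kappaB target genes, 17 were higher in both lines and 0 lower, with a median difference of 3.01. CXCL8, the neutrophil chemokine interleukin 8, had 266134, 142496 and 161205 in CRT34 and 199339, 65945 and 85813 in CRT35. The clones had 4094, 1627 and 1680.3 in gSOX10 #2 and 1357, 2041 and 8383 in gSOX10 #4, and the parental libraries spread from 978 to 11744 (5.77, SE 0.79, limma adjusted p = 9.32e-06). All 6 libraries of the lines were above all clone and parental libraries. VCAM1, an endothelial-type adhesion molecule that binds leukocyte integrins, had 5209, 5601 and 6579 in CRT34 and 10817, 5269 and 7184 in CRT35. In the clones VCAM1 had 1.81, 9.6 and 4.17 in gSOX10 #2 and 1.19, 3.89 and 1.39 in gSOX10 #4 (10.68, SE 0.52, adjusted p = 5.54e-12). IL33, an alarmin cytokine of stromal and endothelial cells, had 18329, 18064 and 13557 in CRT34 and 6362, 2649 and 3011 in CRT35, against 16.9, 1.82 and 4.59 in gSOX10 #2 and 21, 4.29 and 18.4 in gSOX10 #4, and was listed at 0 in the parental line. CCL7, a monocyte chemokine listed at 0 in all clone and parental libraries, had 475, 149 and 184 in CRT34 and 679, 202 and 290 in CRT35.

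The other 13 genes called were CCL2, CXCL1, CXCL2, CXCL3, CXCL5, CSF3, IL1A, IL1B, IL32, PTGS2, NFKBIA, ICAM1 and BIRC3. Differences ran from 1.79 for NFKBIA, an inhibitor of NF-kappaB that is itself one of its targets, to 7.56 for CSF3, granulocyte colony-stimulating factor. IL1B averaged 6755 and 11170.5 in the lines and 271 and 660 in the clones. CCL2, a monocyte chemokine, averaged 21617 and 24611 against 846 and 99. PTGS2, the inducible cyclooxygenase, averaged 49468 and 10447 against 538 and 1071. The subunit genes NFKB1, NFKB2 and RELB had differences of 0.90, 0.84 and 0.87, under 2 times. TNFAIP3, a feedback inhibitor, averaged 11139 and 5304 in the lines and 8692 and 2687 in the clones, which overlapped (0.61, adjusted p = 0.318). CSF1, LIF and CCL5 were not called either.

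BIRC3, which codes for the inhibitor of apoptosis cIAP2, had 4648, 3107 and 4003 in CRT34 and 8134, 3202 and 5047 in CRT35. It had 367, 718 and 476 in gSOX10 #2, 375, 872 and 677 in gSOX10 #4 and 241, 1104 and 1652 in the parental line. The lines were above the clones in every library (3.01, SE 0.50, limma adjusted p = 7.86e-05, or 0.0135 with lines and clones as observations). BIRC3 was the single member called of 29 genes of the IAP family and death receptor signaling (3.45%, beside 6.81% of all genes tested). The related BIRC2 (cIAP1) had a difference of 0.78 (SE 0.13, adjusted p = 7.68e-05) and XIAP of 0.48 (SE 0.19, adjusted p = 0.0497), both under 2 times. Among 25 p53 targets SUSD6 alone was called, higher in both lines (4%, beside 6.81% of all genes tested). Without CRT35 DMSO replicate 1 its smallest difference was under 2 times.

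**Figure D3:**
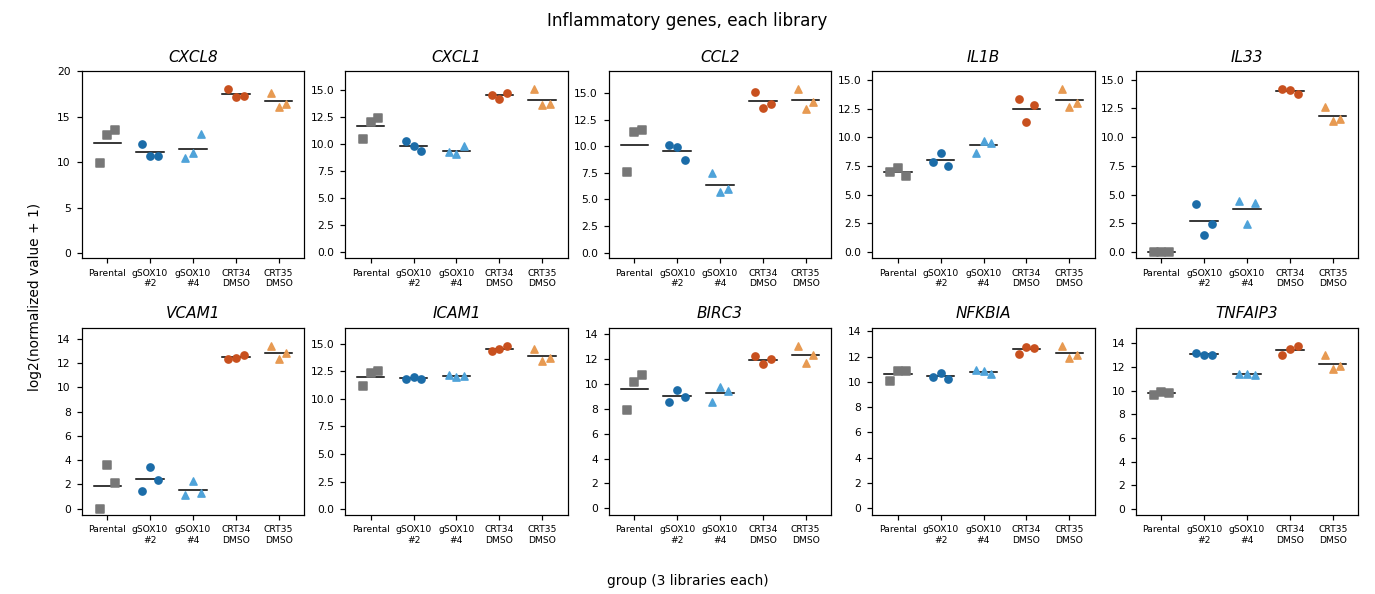
Log2(normalized value + 1) of 10 inflammatory genes, 1 point per library, for the parental line, both clones and both lines in DMSO (3 libraries each), with a bar at the group mean. CXCL8 to NFKBIA are higher in all 6 libraries of the lines than in all 6 of the clones, and TNFAIP3 is not.

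Promoters of the genes called in this list were searched for the NF-kappaB consensus on both strands, in the 250 bases before the annotated start (RefSeq, GRCh38.p14). An entry was found for 15 of the 17 genes, and 8 of these (53.3%) held at least 1 match, beside 6 of 12 promoters (50%) of the other list members. Matches were found in 11.7% of 11987 promoters of protein-coding genes tested, in 16.9% of 479 promoters of genes higher in both lines and in 9.25% of 281 promoters of genes lower in both. The stretches around the match nearest to the start are shown for these 8 genes because they let the sites be compared, with the match in capitals and each sequence on the strand of its gene.
CXCL1, chr4:73869290-73869349, plus strand: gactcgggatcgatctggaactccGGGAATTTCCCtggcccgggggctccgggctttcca
CXCL2, chr4:74099238-74099297, minus strand: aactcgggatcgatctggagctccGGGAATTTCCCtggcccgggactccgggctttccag
CXCL3, chr4:74038733-74038792, minus strand: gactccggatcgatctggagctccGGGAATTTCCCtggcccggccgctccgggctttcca
CXCL5, chr4:73998733-73998792, minus strand: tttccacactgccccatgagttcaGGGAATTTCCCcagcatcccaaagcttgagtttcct
IL32, chr16:3065280-3065339, plus strand: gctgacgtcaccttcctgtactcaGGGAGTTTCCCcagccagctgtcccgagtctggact
VCAM1, chr1:100719655-100719714, plus strand: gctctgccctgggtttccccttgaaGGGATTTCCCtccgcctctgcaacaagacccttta
NFKBIA, chr14:35404796-35404855, minus strand: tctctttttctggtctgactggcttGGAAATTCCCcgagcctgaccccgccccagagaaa
BIRC3, chr11:102317324-102317383, plus strand: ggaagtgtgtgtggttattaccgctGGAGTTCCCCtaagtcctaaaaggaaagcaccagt
CXCL1, CXCL2, CXCL3 and CXCL5 lie in 1 cluster on chromosome 4 and held the same 11 capital letters, and CXCL1, CXCL2 and CXCL3 also resembled each other outside them. The capitals of the 4 CXCL genes, IL32 and VCAM1 hold overlapping matches on both strands. In NFKBIA and BIRC3 the match was on the opposite strand. The whole 250 bases before the start of VCAM1 follow, since VCAM1 had the largest difference of the list.
VCAM1, chr1:100719492-100719741, plus strand: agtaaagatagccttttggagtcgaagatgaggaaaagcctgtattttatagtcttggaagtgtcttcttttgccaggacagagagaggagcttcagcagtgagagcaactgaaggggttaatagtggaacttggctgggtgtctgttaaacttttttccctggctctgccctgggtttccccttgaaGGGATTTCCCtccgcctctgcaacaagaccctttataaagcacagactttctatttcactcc
The other canonical motif searched was that of AP-1, TGACTCA, which on the other strand reads TGAGTCA. It was found in 2.81% of all promoters, 5.22% of those higher and 5.69% of those lower in both lines. CXCL8, IL1A and POSTN were among the higher genes with a match. A match describes letters and no binding was measured.

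Neural crest and glial genes did not move together. Of 33 genes tested, 5 were higher in both lines and 7 lower. The lower genes included SOX10, NGFR, ERBB3, SOX5, ROPN1 and GAP43. NGFR, the low-affinity receptor of neurotrophins and a neural crest stem cell marker, had 13.4, 4.72 and 5.64 in CRT34 and 18.4, 22.4 and 39.7 in CRT35. It had 966, 1304 and 1033 in gSOX10 #2 and 142, 128 and 53.6 in gSOX10 #4, so the clones differed from each other, and the parental line had 760.4, 757 and 724. The difference of lines from clones was -4.49 (SE 0.28, limma adjusted p = 2.35e-10), or adjusted p = 0.167 with lines and clones as observations. ERBB3, a neuregulin receptor of the neural crest lineage, had 14.8, 31.4 and 77 in CRT34 and 34, 35.9 and 24.4 in CRT35 against 104, 172 and 117 in gSOX10 #2 and 107, 256 and 160.4 in gSOX10 #4 (-2.14, SE 0.36, adjusted p = 9.31e-05). Without CRT34 DMSO replicate 1 ERBB3 was not called in all 4 contrasts (largest adjusted p = 0.0571). ROPN1, ropporin, had 20.7, 16.6 and 15.9 in gSOX10 #2 and 12.8, 16.7 and 3.99 in gSOX10 #4 in the clones and was listed at 0 in all 6 libraries of the lines.

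In the other direction, GFRA1, the receptor of glial cell line-derived neurotrophic factor, had 2404, 575 and 895 in CRT34 and 1530.1, 675 and 1135 in CRT35, against 40.3, 11.2 and 10.2 in gSOX10 #2 and 11, 10.02 and 4.04 in gSOX10 #4 (6.42, SE 0.40, limma adjusted p = 2.36e-10). SNAI2, a transcription factor of neural crest migration and epithelial-mesenchymal transition (EMT), averaged 1509 and 1636 in the lines and 481 and 429 in the clones. NES, which codes for the intermediate filament nestin, averaged 9822 and 4403 against 929.6 and 1562. GAS7 had 95.3, 102 and 118 in CRT34 and 180, 109.5 and 67.4 in CRT35 against 20.6, 10.2 and 39 in gSOX10 #2 and 25.1, 40.8 and 17 in gSOX10 #4, with a parental mean of 6259.5. SOX9, a related factor that in melanoma often opposes SOX10, averaged 229 in the parental line, 1756 and 2091 in the lines and 4606 and 3590.2 in the clones (-1.08, SE 0.17, adjusted p = 3.32e-05), which was a lower call in the mean but not in all 4 contrasts.

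**Figure D4:**
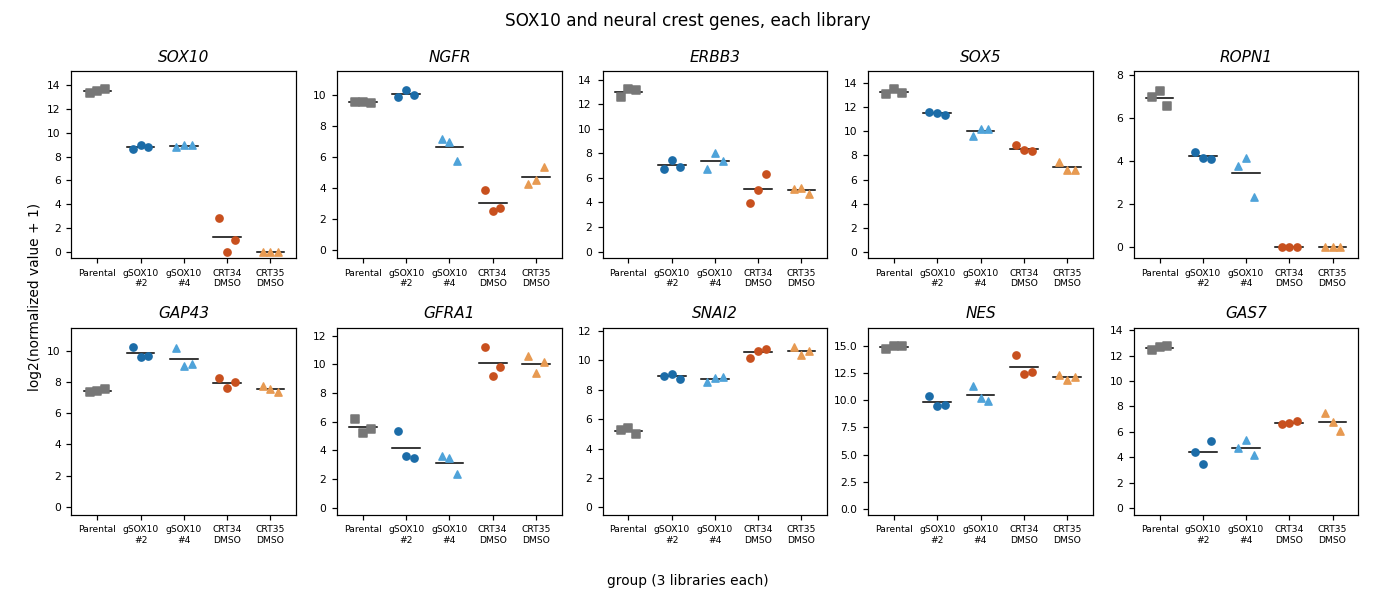
Log2(normalized value + 1) of SOX10 and 9 other neural crest and glial genes, 1 point per library, for the parental line, both clones and both lines in DMSO (3 libraries each), with a bar at the group mean. SOX10 to GAP43 are lower and GFRA1 to GAS7 higher in all 6 libraries of the lines than in all 6 of the clones.

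Of 20 melanocyte pigment genes only 12 passed the filter on low values. BCL2A1, an antiapoptotic BCL2 relative that is also an NF-kappaB target, was higher in both lines, at 1030.1, 451 and 591 in CRT34 and 1338, 798 and 797 in CRT35 against 55.3, 18.9 and 19.3 in gSOX10 #2 and 105, 103 and 89.6 in gSOX10 #4. MITF, the master regulator of melanocytes, had a difference of 0.02 (95% interval -0.44 to 0.49, limma adjusted p = 0.943). Group means of MITF were 2173 in CRT34, 1564 in CRT35, 2396 in gSOX10 #2 and 1449 in gSOX10 #4.

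Receptor tyrosine kinases and their ligands had 12 members higher and 3 lower of 46. Among the ligands HGF, the hepatocyte growth factor that activates MET, had 602, 999 and 784 in CRT34 and 1378, 1826 and 1590.4 in CRT35, and 6.82, 5.75 and 8.42 in gSOX10 #2 and 2.02, 7.78 and 1.3 in gSOX10 #4 in the clones (7.64, SE 0.37, limma adjusted p = 6.18e-12). The receptor MET itself had -0.67 (SE 0.14), under 2 times. IGF2 had 91.8, 285 and 147 in CRT34 and 64.9, 29.1 and 13.5 in CRT35 against 0.985, 0.872 and 7.79 in gSOX10 #2 and 0, 0.819 and 5.6 in gSOX10 #4. FGF2, FGF5, PDGFA and PDGFD were higher by 3.13, 2.01, 1.71 and 2.27. TGFA, a ligand of EGFR, went the other way, with 986, 4018 and 2957 in CRT34 and 635, 426 and 407 in CRT35 against 11291, 22962 and 29117 in gSOX10 #2 and 8688, 16747 and 35263 in gSOX10 #4 (-4.14, SE 0.37, adjusted p = 4.5e-08). The parental line had 14230, 15303 and 18141, within the range of the clones.

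Among the receptors ROR2, which binds WNT5A, had 103, 99.6 and 35.5 in CRT34 and 77.5, 73.7 and 85.6 in CRT35 in the lines and at most 0.99 in any clone library (5.79, SE 0.39, limma adjusted p = 5.56e-10). PDGFRB averaged 3133 and 5257 in the lines and 1251 and 820.1 in the clones (1.99, SE 0.26, adjusted p = 5.63e-06), and PDGFRA averaged 1316 and 1548 against 246 and 304. PDGFRB was not called without gSOX10 #2 replicate 1 (largest adjusted p = 0.0513). NTRK2, a neurotrophin receptor, was lower in both lines, at 4.97, 5.76 and 2.77 in CRT34 and 11.7, 2.16 and 3.02 in CRT35 against 109, 91.3 and 119 in gSOX10 #2 and 19.4, 24.1 and 31.6 in gSOX10 #4. EGFR had 6530.1, 7288 and 6539.9 in CRT34 and 8402, 6916 and 7446 in CRT35 in the lines and 8718, 7416 and 8682 in gSOX10 #2 and 5885, 8209 and 9053 in gSOX10 #4 in the clones, with a difference of -0.14 (95% interval -0.45 to 0.16, adjusted p = 0.448). AXL, a receptor of the dedifferentiated state, had -0.28 (95% interval -0.73 to 0.17, adjusted p = 0.318).

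**Figure D5:**
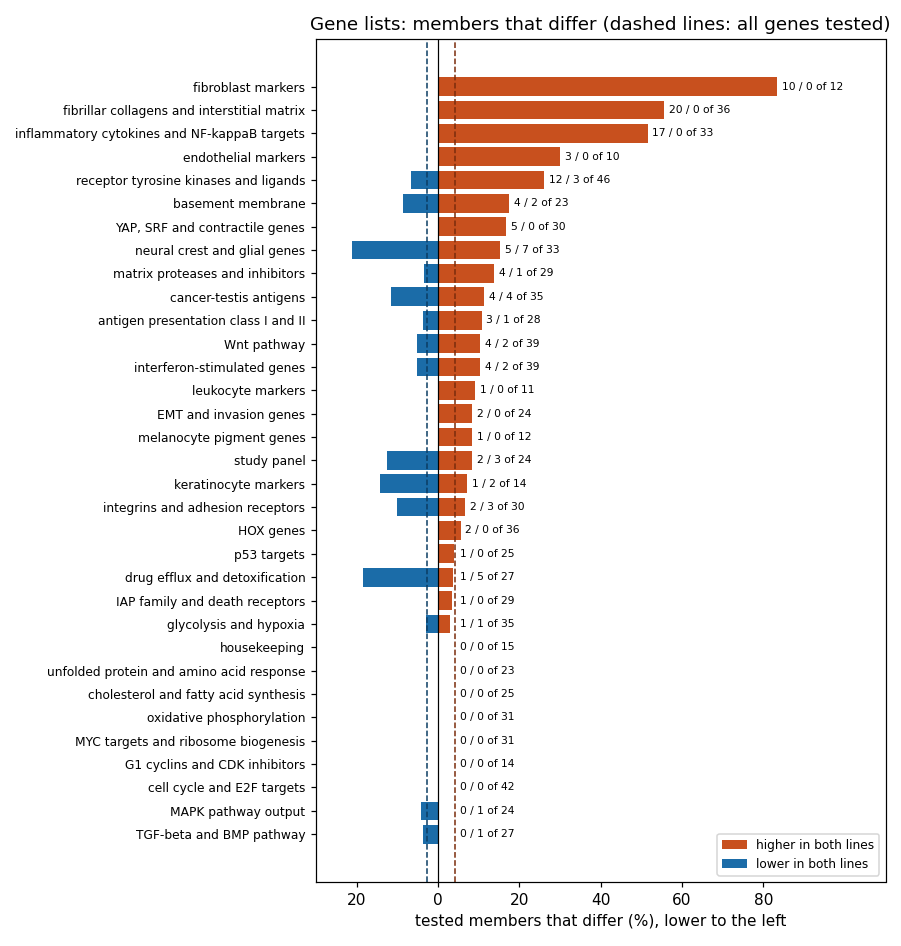
Share of tested members of each gene list that were higher (right) or lower (left) in both lines against both clones, with the counts higher / lower of members tested beside each bar. Dashed lines mark the shares over all 19290 genes, 4.1% higher and 2.71% lower, and fibroblast markers, interstitial matrix and inflammatory genes extend farthest to the right.

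Contractile and adhesion genes showed smaller groups of differences, beside 4.1% higher and 2.71% lower over all genes tested. The shares higher and lower were 16.7% and 0% for contractile genes, 8.33% and 0% for EMT genes and 6.67% and 10% for integrins. Of 30 YAP, SRF and contractile genes 5 were higher, TAGLN, MYL9, ACTG2, MYOCD and CCN4, the last not without CRT34 DMSO replicate 2 or gSOX10 #2 replicate 3 (largest adjusted p = 0.136 and 0.123). With 10 added to each value instead of 1, neither ACTG2 nor CCN4 was called (largest limma adjusted p = 0.272 and 0.0559). TAGLN, which codes for transgelin, had 97876, 20522 and 36909 in CRT34 and 3606, 2584 and 3167 in CRT35, and 359, 140.2 and 107 in gSOX10 #2 and 216, 39.6 and 55 in gSOX10 #4 in the clones. MYL9, the regulatory myosin light chain of smooth muscle, had 30958, 14167 and 23089 in CRT34 and 6599.6, 4016 and 4109.7 in CRT35 against 262, 295 and 250.5 in gSOX10 #2 and 338, 299 and 222 in gSOX10 #4 (5.20, SE 0.18, limma adjusted p = 3.58e-14). CRT34 was above CRT35 in every library for both, and both lines were above the clones. Of 24 EMT and invasion genes ZEB2 and TCF4 were higher, and ZEB1 and CDH2 (N-cadherin) had 0.44 and 0.37 (adjusted p = 0.132 and 0.0962). TCF4 was not called without CRT35 DMSO replicate 1 or 2 or gSOX10 #2 replicate 2 or 3 (largest adjusted p from 0.0541 to 0.0809). Of 30 integrins and adhesion receptors, ITGA8 and ITGA9 were higher, and DDR1, a collagen receptor, was lower at 532, 1978 and 1629 in CRT34 and 1084, 973 and 1104 in CRT35 against 4814, 6589.8 and 6334 in gSOX10 #2 and 4164, 3836 and 4188 in gSOX10 #4, along with ITGB5 and CADM1, whose smallest differences fell under 2 times without CRT35 DMSO replicate 3 or CRT34 DMSO replicate 1 (ITGB5) and CRT35 DMSO replicate 1 (CADM1). After centring each chromosome, the smallest differences of ITGB5 and CADM1 were also under 2 times (0.655 and 0.972 on the log2 scale). ITGA8 was not called without gSOX10 #2 replicate 2 (largest adjusted p = 0.0726).

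Interferon-stimulated genes divided, with 4 of 39 higher and 2 lower (10.3% and 5.13%, beside 4.1% and 2.71% of all genes tested). XAF1 had 317, 409 and 491 in CRT34 and 811, 492 and 501 in CRT35 against 9.4, 18 and 0.848 in gSOX10 #2 and 5.44, 5.62 and 0.698 in gSOX10 #4. BST2, tetherin, had 3296, 4149 and 5069 in CRT34 and 6851, 6270.4 and 5585 in CRT35 against 234, 232 and 184 in gSOX10 #2 and 855, 439.9 and 508 in gSOX10 #4 (3.84, SE 0.19, limma adjusted p = 5.53e-12). IFITM1 and IFITM2, membrane proteins that restrict virus entry, were higher by 4.94 and 1.86. OASL was lower, at 77.3, 193 and 231 in CRT34 and 182, 114 and 116 in CRT35 against 1193, 960 and 536 in gSOX10 #2 and 1258, 855 and 691 in gSOX10 #4, beside a parental level of 69.7, 64.9 and 47.6. ISG20 was lower by the main test, and without CRT34 DMSO replicate 1 or gSOX10 #4 replicate 1 its smallest difference was under 2 times. Of 28 antigen presentation genes HLA-B, HLA-F and CTSS were higher and CIITA lower (10.7% and 3.57%). HLA-B averaged 21853 and 23916 in the lines and 7459.9 and 2033 in the clones, and CIITA, the activator of class II genes, had 44.1, 14.7 and 16.5 in CRT34 and 22.1, 56.5 and 63.3 in CRT35 against 632, 344 and 472 in gSOX10 #2 and 164, 176 and 203 in gSOX10 #4. HLA-F was not called without CRT34 DMSO replicate 3 (largest adjusted p = 0.0563), nor without CRT35 DMSO replicate 1, where its smallest difference was under 2 times. HLA genes share sequence, so reads of one may be counted for another.

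Among the genes lower in the lines, the 14 ranked by the smallest of the 4 differences were LGR6, CD96, AKR1B10, NXF2, KRT81, PPARG, SYTL5, VGF, PADI4, ZNF385D, SNAP25, CT55, PKIB and KCNJ2. Some were high in the clones and low in the parental line. LGR6, a receptor for R-spondins in the Wnt pathway, had 385, 816 and 1357 in gSOX10 #2 and 653, 344 and 895 in gSOX10 #4. It had 0, 12.1 and 11 in CRT34, 7.72, 1.03 and 9 in CRT35 and 17.6, 10.5 and 10.02 in the parental line (-6.92, SE 0.59, limma adjusted p = 1.85e-08). AKR1B10, an aldo-keto reductase, had 1125, 928 and 393 in gSOX10 #2 and 602, 507 and 444 in gSOX10 #4 in the clones, 2.35, 2.73 and 3.88 in CRT34 and 19.3, 6.99 and 7.17 in CRT35 in the lines and 10.7, 17.9 and 6 in the parental line. SNAP25, a SNARE protein of synaptic release, PADI4, a peptidylarginine deiminase, NXF2, an mRNA export factor of the testis, PKIB, an inhibitor of protein kinase A, CT55 and ZNF385D had parental means between 4.13 and 77.2 and clone means between 416 and 4104. NXF2 has a near-identical copy, so its count is uncertain.

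Others were high in the parental line and were lower in the lines than in the clones. CD96, a receptor of T and natural killer cells, had 10800.4, 12751 and 11722 in the parental line. It had 2415, 2589 and 1848 in gSOX10 #2 and 1646, 2051 and 1927 in gSOX10 #4 in the clones and 27.8, 23.6 and 11.1 in CRT34 and 5.54, 40.03 and 24.8 in CRT35 in the lines (-6.70, SE 0.40, limma adjusted p = 1.1e-10). PPARG, the nuclear receptor of adipocyte differentiation, had 3757, 4278 and 4120.3 in the parental line, 6971, 9479.8 and 7532 in gSOX10 #2 and 5544, 5437 and 4966 in gSOX10 #4 in the clones and 100, 316 and 267 in CRT34 and 96.3, 246 and 314 in CRT35 in the lines (-5.02, SE 0.27, adjusted p = 3.12e-11). SYTL5, a synaptotagmin-like protein, averaged 6211 in the parental line, 1804 and 828 in the clones and 46.7 and 8.58 in the lines. KRT81, a hair keratin with close paralogs, averaged 4337, 5032 and 17589, and 91.9 and 150.1, in the same order. VGF, a secreted neuroendocrine protein, and KCNJ2, an inward rectifier potassium channel, had parental means of 543 and 462 and means of at most 24.4 in the lines.

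Of 27 drug efflux and detoxification genes tested, 5 were lower in both lines and 1 higher. ABCC2, an efflux pump for conjugated drugs, had 714, 1155 and 1679 in CRT34 and 2197, 2085 and 1676 in CRT35, against 12766, 14181 and 13348 in gSOX10 #2 and 6873, 8552 and 9638 in gSOX10 #4 (-2.83, SE 0.17, limma adjusted p = 1.31e-10). ABCC3, AKR1C1 and HMOX1, heme oxygenase 1, had differences of -2.55, -3.15 and -1.91, and AKR1B10 was the fifth gene. CYP1B1, a cytochrome P450 of xenobiotics, was higher, averaging 1706 and 1713 against 355 and 310.3. ABCB1, the multidrug pump P-glycoprotein, had 0.77, under 2 times. AKR1C genes are close copies of one another, and AKR1C2 and AKR1C3 were not called in all 4 contrasts.

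Cancer-testis antigens were called in both directions, 4 of 35 higher and 4 lower. GAGE12J had 452, 442 and 468 in CRT34 and 806, 775 and 872 in CRT35, and at most 3.99 in any clone library, while GAGE1 of the same family had 101, 104 and 154 in CRT34 and 249.8, 272 and 299.5 in CRT35 against 1328, 1469 and 1432 in gSOX10 #2 and 2099, 1729 and 1963 in gSOX10 #4. MAGEA1 averaged 2413 and 601 in the lines and 32.9 and 8.67 in the clones. SPANXB1 averaged 2306 and 2789.7 against 10401 and 18709.6. MAGEB1, also higher, lost its call in 8 of the 12 fits that omit 1 library (largest adjusted p from 0.0539 to 0.232). The GAGE, SPANX and MAGE families hold near-identical genes, and reads cannot be assigned to a copy with certainty. Of 36 HOX genes, HOXA11 (357, 276 and 272 in CRT34 and 383, 354 and 358 in CRT35 against 31.5, 42.9 and 35.2 in gSOX10 #2 and 25.9, 15.2 and 12.2 in gSOX10 #4) and HOXD1 were higher. The HOX genes called were 5.56% of those tested, beside 4.1% higher over all genes. In the Wnt pathway WNT7B, ROR2, DKK2 and FRZB were higher and LGR6 and WNT16 lower, of 39 genes. These were 10.3% and 5.13%, beside 4.1% and 2.71% over all genes. DKK2 lost its call in 6 of the 12 fits that omit 1 library (0.0583 to 0.233). Its call was also lost with no filter, with the 12 libraries fitted alone, at equal totals and after quantile normalization. The same held with the replicate number as a block and after centring each chromosome (largest limma adjusted p in these settings from 0.0507 to 0.07995). With 10 added to each value instead of 1, the smallest differences of FRZB and WNT16 fell under 2 times (0.785 and 0.968 on the log2 scale). WNT5A itself had 0.62 (SE 0.31, limma adjusted p = 0.111).

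Lists of proliferation, growth and metabolism genes held 14 to 42 members each, and their counts are to be read against the 6.81% of all genes tested that were called in either direction. In the list of 42 cell cycle and E2F targets limma called 0 genes, in all 4 contrasts and in the mean of lines against clones, with a median of 0.32. At an unadjusted p under 0.05, 13 of the 42 passed in the mean (49.5% of all genes tested) and 0 in all 4 contrasts (13.9% of all genes). MKI67, whose protein marks cycling cells, had 0.35 (95% interval -0.26 to 0.95, limma adjusted p = 0.36). CDKN1A, the gene of the CDK inhibitor p21, had -0.93 (SE 0.30, adjusted p = 0.018), and CCND1, CCND3, CDKN1B, RB1 and MYC had differences from -0.35 for MYC to 0.50 for RB1. Lists of G1 cyclins and CDK inhibitors (14 tested), MYC targets and ribosome biogenesis (31), oxidative phosphorylation (31), cholesterol and fatty acid synthesis (25) and the unfolded protein response (23) also had 0 members called in all 4 contrasts, and medians from -0.22 to 0.24. Among these the mean contrast called 1 higher and 0 lower of the MYC list, 0 and 1 of oxidative phosphorylation, 1 and 0 of cholesterol synthesis and 0 and 2 of the unfolded protein response. At an unadjusted p under 0.05 in all 4 contrasts, 0 of the G1, 2 of the MYC, 4 of the oxidative phosphorylation, 4 of the cholesterol and 3 of the unfolded protein genes passed. Of 15 housekeeping genes 0 were called by limma and 2 passed at that unadjusted p, with ACTB and B2M at 0.83 and 0.70.

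In the absence of drug 1 of 24 genes of MAPK pathway output was called (4.17%, below the 6.81% of all genes tested). This was the phosphatase gene DUSP4, lower in both lines at 2778, 5113 and 4592 in CRT34 and 9121, 10044 and 9185 in CRT35. The clones had 23574, 28640.2 and 36658 in gSOX10 #2 and 18494, 18496 and 27322 in gSOX10 #4. DUSP4 was not called without CRT35 DMSO replicate 1 or 3 or gSOX10 #4 replicate 3 (largest adjusted p from 0.0640 to 0.0942). DUSP6, the phosphatase most specific for ERK, had a difference of 0.06 (95% interval -0.34 to 0.47, limma adjusted p = 0.823). In the TGF-beta and BMP pathway 1 of 27 genes was called (3.7%, also below 6.81%). This was LTBP3, which was lower (-1.83, limma adjusted p = 3.3e-07) and was under 2 times in 1 contrast without CRT34 DMSO replicate 1. In glycolysis and hypoxia SLC16A3, a lactate transporter, was higher and PFKFB4 lower, of 35 (5.71%, also below 6.81%). PFKFB4 was not called without CRT34 DMSO replicate 1 (largest adjusted p = 0.0786).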

How the data were processed

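RNA of A375 parental cells, 2 SOX10 knockout clones and 2 tolerant lines was read by the authors as paired-end libraries (the labels and the methods name different TruSeq kits). Per the labels, STAR 2.6.1a, RSEM, Picard and DESeq2 were used with GRCh38, with no role or order given. The deposited signal values are not counts. From the values, they appear to be RSEM gene counts divided by size factors and a factor per gene. Whole reads could not be recovered, since only 25.4% to 63.7% of low values in the 12 libraries lay within 0.05 of a whole multiple of the library's step, and no count model was used. GENCODE version 44 gave symbols and positions for 58472 of the 58870 genes.

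A gene was kept if 3 or more of all 21 libraries had a value of 10 or more, which left 19290 of 32889 genes above 0. limma 3.58.1 (R 4.3.3) with an intensity trend was fitted to log2(value + 1), with a mean for each of 7 groups and no covariate, giving 14 residual and 4.70 prior degrees of freedom. The Benjamini-Hochberg adjustment covered all genes of a contrast, and intervals are 95% and unadjusted. The steps were tested on simulated data. Depth limits the precision of low values. Counting intervals need counts and are not given.

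Named genes were SOX10, the 14 higher and 14 lower protein-coding genes with the largest smallest difference of the 4 contrasts, with separated libraries and at least 10 per M, and a panel of 24 genes. Up to 4 members of each of 33 gene lists called one way and 2 the other, or 2 with the lowest p, were named by the same measure. Up to 4 genes listed at 0 on 1 side and up to 3 with the lines on opposite sides were added. Other list members in the text were chosen after their values were seen. Lists, members and rules were chosen with earlier results of these data known. The panel came largely from the study and is not independent evidence. It held 2 higher genes, PDGFRB and BIRC3, and 3 lower, SOX10, ERBB3 and NGFR, of 24. Sequences are from RefSeq (GRCh38.p14). Some genes are not reported here. The inhibitor arms of the lines entered the shared spread only.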

Additional observations from a re-analysis of the deposited data

Results flagged for a closer look

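The 2 lines stood on opposite sides of both clones for 7 genes, each called in all 4 contrasts of a line with a clone, and the direct contrast of the lines tested that difference. COL4A1 (GRCh38 chromosome 13, 110148963 to 110307157, minus strand) had a CRT35 minus CRT34 difference of -13.38 (SE 0.22, limma adjusted p = 9.61e-19). Its neighbor COL4A2 (chromosome 13, 110305812 to 110513209, plus strand), which codes for the partner chain of collagen IV, had -7.94 (SE 0.24, adjusted p = 3.07e-14). COL4A2 had 79719, 51422 and 57584 in CRT34, 328, 227 and 211 in CRT35, 11977, 9577 and 11214 in gSOX10 #2 and 14223, 8012 and 10543 in gSOX10 #4. The parental line had 12106, 13316 and 15752, near the clones. The 2 genes run in opposite directions and overlap at their starts, and whether the counting used strand is not settled by the sources used here. ANKRD33B was higher in CRT35, by 3.002 (SE 0.40, adjusted p = 4.8e-05), with 529, 124 and 232 in CRT34, 1518, 1979 and 2643 in CRT35, 499, 793 and 624 in gSOX10 #2 and 483, 1256 and 929 in gSOX10 #4. The other 4, named after their values were seen, were CDH19, ZNF727 and the unnamed gene ENSG00000259727, higher in CRT34, and the noncoding GAPLINC, higher in CRT35. Between 4 and 9 genes met the criterion when 1 library was left out, 4 without gSOX10 #2 replicate 2 or CRT35 DMSO replicate 3.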

How the results depend on the processing

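At a difference of at least 4 times, 493 genes were higher and 276 lower in both lines against both clones, 1052 and 653 in the mean of lines against clones, and 3 lay on opposite sides. In that setting CRT34 minus gSOX10 #2 had 1049 higher and 869 lower, CRT34 minus gSOX10 #4 had 1386 and 642, CRT35 minus gSOX10 #2 had 953 and 940, and CRT35 minus gSOX10 #4 had 1278 and 721. It left 13 matrix genes and 7 receptor tyrosine kinases and ligands. Of 112 named genes called in both lines against both clones, 31 lost that call in this setting, more than in any other. Fewer genes are tested when a value of at least 100 in 3 libraries is required, and this gave 334 lower genes in both lines (583 higher). The mean contrast then had 1215 higher and 899 lower, CRT34 minus gSOX10 #4 had 1519 and 926, CRT35 minus gSOX10 #2 had 1181 lower and CRT35 minus gSOX10 #4 had 1003 lower. With the line and clone means as observations the mean contrast had 286 higher and 162 lower, on 2 residual degrees of freedom, and 3408 genes had an unadjusted p under 0.05.

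Leaving out each of the 12 libraries in turn gave 713 to 779 higher and 458 to 535 lower genes in both lines, and 584 of the 790 and 346 of the 523 were called in every such fit. The mean contrast had 1941 to 2045 higher and 1465 to 1652 lower. The 4 contrasts had 1582 to 1762 and 1431 to 1745 (CRT34, gSOX10 #2), 2111 to 2369 and 1268 to 1410 (CRT34, gSOX10 #4), 1520 to 1736 and 1497 to 1898 (CRT35, gSOX10 #2), and 2159 to 2440 and 1388 to 1644 (CRT35, gSOX10 #4). Members higher were 17 to 20 for matrix genes, 15 to 18 for inflammatory genes, 9 to 12 for receptor tyrosine kinases and 9 to 10 for fibroblast markers. Of 112 named genes that differed in both lines against both clones, 21 lost that call without some library, 6 at a pseudocount of 10, 5 with no filter, 5 with the 12 libraries fitted alone, 2 at equal totals, 3 after quantile normalization and 6 after centring each chromosome. None of these 112 genes changed direction in the mean of lines against clones. Higher and lower counts in both lines were 688 and 458, 762 and 529, 755 and 520, 738 and 561, 726 and 601, and 770 and 508 in these settings.

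Same-numbered libraries of CRT34, CRT35 and gSOX10 #4 did not deviate together (r = -0.0188 to 0.0762). This gave no sign that the numbers pair the samples of these groups, and the other groups were not examined. With the replicate number as a block, 801 genes were higher and 524 lower, and 1 named gene, DKK2, was no longer called.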

Other observations

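Some genes were detected on 1 side only. Genes under the filter on low values were not counted, and a gene at 0 on 1 side passed that filter through other libraries. Of the 19290 genes tested, 64 were listed at 0 in all 6 clone libraries and above 0 in all 6 of the lines, 44 of them protein-coding. Beside CD248, FMOD and CCL7 these included ANGPT2, a ligand of the receptor TEK, with 609, 282 and 183 in CRT34 and 730.3, 433 and 303 in CRT35 and 0, 3.97 and 0 in the parental line. In the other direction 33 of the genes tested, 18 of them protein-coding, were listed at 0 in the lines and above 0 in all clone libraries. FUT9, a fucosyltransferase that makes the Lewis x antigen, had 27.8, 15.5 and 30.9 and 36, 113 and 109, against 214, 182 and 166 in the parental line, and NWD1 had 246, 552 and 217 and 18.7, 36.1 and 18.1. SPON1, which codes for the matrix protein F-spondin, had 12.4, 16 and 12.7 and 20.6, 13.4 and 45.9 and was listed at 0 in the parental line. A gene listed at 0 was not detected at this depth, and no fold is given.

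Long noncoding RNAs were called more often lower than higher, 120 and 94 of 2792, where protein-coding genes had 380 and 663 of 15113. By chromosome, the median difference of genes with a mean of at least 100 ran from -0.186 on chromosome 3 to 0.244 on chromosome 17. On chromosome 3 the median was 0.0597 and 0.000673 for CRT34 against gSOX10 #2 and gSOX10 #4, and -0.399 and -0.425 for CRT35, so the low value came from CRT35. On chromosome 17 the median was 0.406 and 0.484 for CRT34 and CRT35 against gSOX10 #4, and -0.00907 and 0.0375 against gSOX10 #2.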
